A study of Mus musculus with 16 samples.

Results

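Transcripts of 10 cytokines and colony-stimulating factors (Il1a, Il6, Il15, Il18, Il33, Lif, Csf1, Csf2, Csf3 and Tslp) were followed in KPC1199 cells, a mouse pancreatic ductal adenocarcinoma line from the KPC model, in which Pdx-cre acts in the pancreas and mutant Trp53 is among the tumor alleles. The members were taken by gene symbol, and all 10 were among the 54003 named genes present in both deposited count tables. RNA-seq was run on 16 libraries in 2 experiments. The untreated experiment had 2 libraries of cells with a control guide (sgCtrL, genotype WT) and 2 of cells with a guide against Sin3B (Sin3Bsg1, genotype Sin3B Knockout). The IFNγ experiment had 3 libraries in each of 4 groups, sgCtrL and Sin3Bsg1 cells cultured without IFNγ or with 10 ng/ml IFNγ for 24 h. All 6 groups therefore carried a lentiviral Cas9 vector and the tumor alleles of the line, and each genotype was represented by 1 guide in puromycin-selected cells. The labels gave no separate cultures or passages for the replicates, so the p-values below measure the spread between these libraries, which may be technical.

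Cytokines are secreted proteins by which tumor cells signal to leukocytes, stroma and one another. The IL-1 family (IL-1α, IL-18, IL-33) acts as alarm signals that are stored or processed before release, and the IL-6 family (IL-6, LIF) signals through the shared receptor subunit gp130. IL-15, which is presented on its own receptor chain, supports T and NK cells, and TSLP is an epithelial cytokine of type 2 responses. The colony-stimulating factors M-CSF (Csf1), GM-CSF (Csf2) and G-CSF (Csf3) drive the production and survival of macrophages and granulocytes, cells that are abundant in pancreatic tumors. SIN3B is a scaffold of histone deacetylase complexes, and IFNγ signals from its receptor to sites in the promoters of its target genes.

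The labels name a cultured cell line, but their extraction protocol speaks of tissue, and which was extracted is not settled by these sources. The estimated counts summed to 29683181 to 32311721 per library in the untreated experiment and 18128055 to 27056903 in the IFNγ experiment. Sin3b, the targeted gene, was lower in Sin3Bsg1 cells by a log2 fold change of -1.28 in the untreated experiment, -1.24 without IFNγ and -1.22 with IFNγ, so transcripts of the gene remained. With IFNγ, Irf1, a transcription factor gene induced by interferons, rose by 3.51 on the log2 scale in sgCtrL and 3.57 in Sin3Bsg1 cells. All 6 epithelial markers were present (3789 to 7293 summed TPM, which are counts corrected for gene length and scaled to a library sum of 1000000), whereas 7 of 8 leukocyte markers stayed at 3 counts or fewer in every group. Adgre1 and Cd3e were at 0 throughout, and 3 of 4 endothelial markers were at 3 counts or fewer. The 7 fibroblast markers summed to 11.97 to 93.9 TPM, nearly all of it from Pdgfra, Pdgfrb and Col1a1. The paper reports collagen transcripts in the tumor cells too. By RT-PCR it found selected collagens lowered by Sin3B loss in cultured cells and in tumor cells sorted from orthotopic tumors. The sgCtrL library with IFNγ numbered replicate 1 stood apart, since its chi-square statistics against the 2 other libraries of its group averaged 19.5 and 23.3 over genes, while the 12 other pairs of replicates gave 2.40 to 9.65. Calls of members and of genes named from the lists that changed without that library are given both ways. Changes of sign among the members are given as ranges at the end. In bulk RNA, fewer cells of a type and less RNA per cell cannot be told apart.

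Csf1 was the dominant transcript of the group, and 5 of the 10 genes were at or under 3 counts in at least 1 library. Csf1 made up 60.8% to 84.4% of the summed TPM of the 10 genes, at 83.0 to 218 TPM in single libraries. Next came Il33 (11.7 to 44.8 TPM), followed by Il18 (5.03 to 10.7 TPM) and Lif (2.85 to 9.27 TPM), whose ranges overlapped. Il15 lay between 0.599 and 4.49 TPM. These 5 genes exceeded 3 counts in 16 of 16 libraries. Csf2 did so in 15, Csf3 in 13, Il6 in 10, Il1a in 8 and Tslp in none of the 16 libraries. A count of 3, the upper limit that a count of 0 allows, corresponded to 0.0934 to 0.162 CPM (counts scaled to a library of 1000000) in these libraries, and this limit covers counting error only. After edgeR's filter on low counts, 5 of the 10 genes were tested in the untreated experiment (Il15, Il18, Il33, Lif, Csf1) and 8 in the IFNγ experiment, where Il6, Csf2 and Csf3 were added. Il1a and Tslp were tested in neither.

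**Figure D1:**
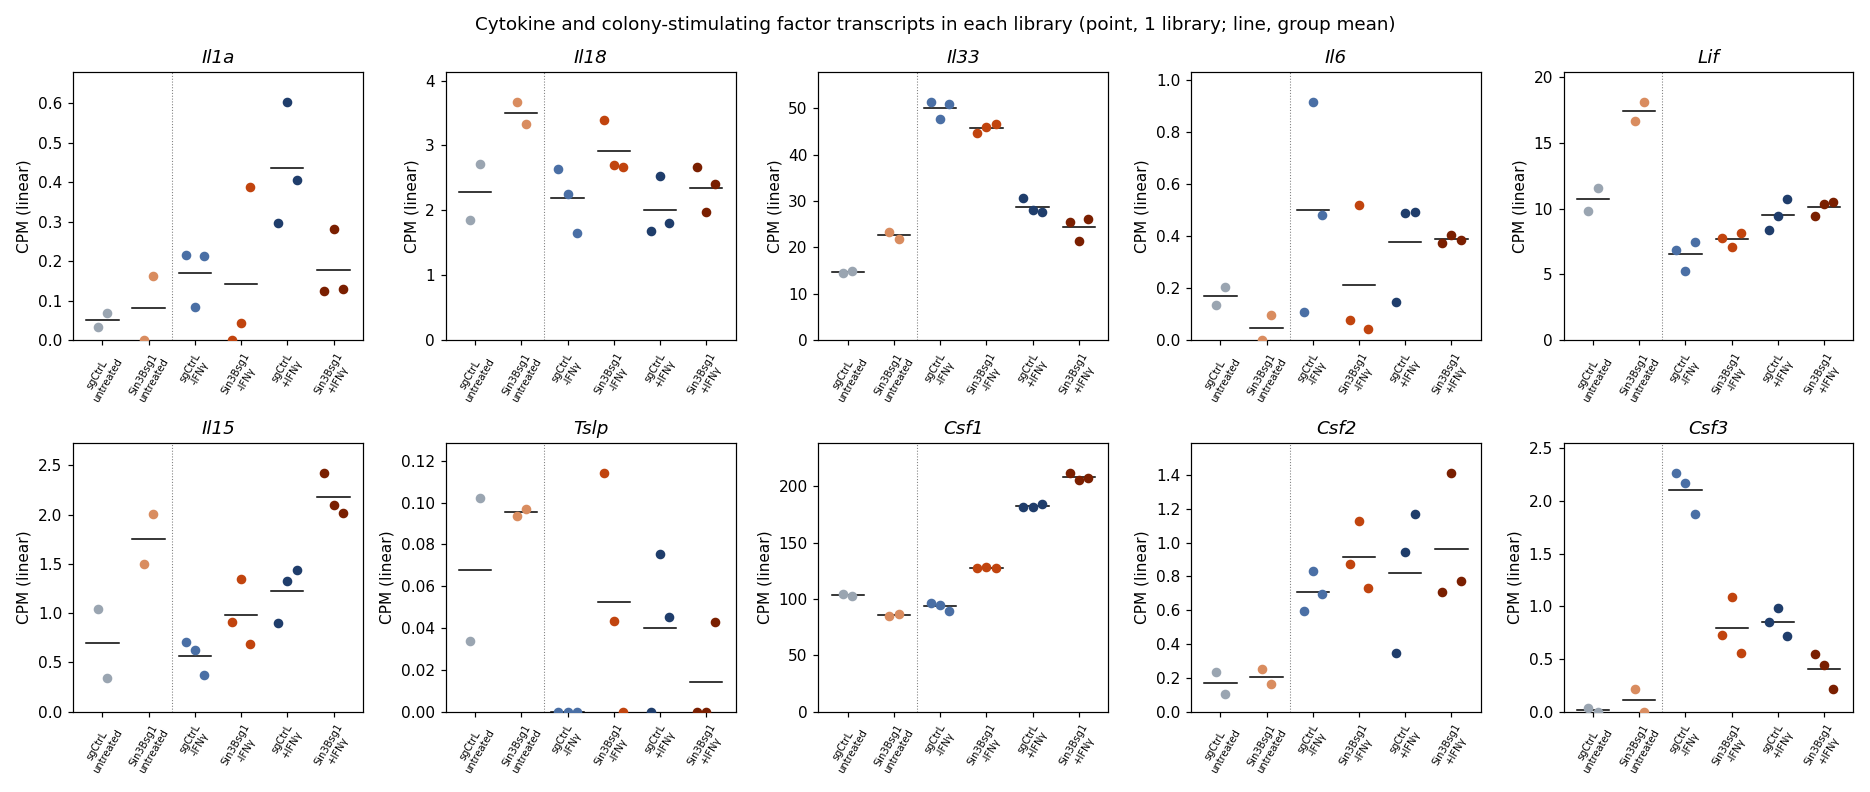
Each panel shows 1 gene in CPM on a linear axis, with 1 point per library, a line at the group mean and a dotted line between the 2 separately normalized experiments (n = 2 per group on the left, n = 3 on the right). Csf1 is lower in the Sin3Bsg1 than in the sgCtrL libraries on the left and higher on the right, and Il1a and Tslp reach at most 0.604 and 0.114 CPM.

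The 3 genes with the highest CPM in the IFNγ experiment are shown with the sequence upstream of their start, because Csf1 and Lif rose and Il33 fell with IFNγ. Not every RefSeq promoter window of the build GRCm38.p6 was used, and of the 10 genes 7 were matched by symbol to those that were. The 250 bases before each start were searched on both strands for GAS (TTCNNNGAA, the gamma-activated site), ISRE (GAAA and GAAA with any 2 bases between them), AP-1 (TGANTCA) and NF-kB (GGGA and TTTCC with any base between them). Capitals mark a match. The windows are Csf1 at chr3:107760470-107760719 (minus strand), Lif at chr11:4257318-4257567 (plus strand) and the first of 2 windows of Il33 at chr19:29924863-29925112 (plus strand), each written 5′ to 3′ on the strand of the gene.
Csf1: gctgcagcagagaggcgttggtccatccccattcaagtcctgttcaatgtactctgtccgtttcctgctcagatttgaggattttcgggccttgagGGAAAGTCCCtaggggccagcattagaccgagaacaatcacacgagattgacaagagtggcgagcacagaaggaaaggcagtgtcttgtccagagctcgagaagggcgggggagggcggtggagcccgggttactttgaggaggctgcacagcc
Lif: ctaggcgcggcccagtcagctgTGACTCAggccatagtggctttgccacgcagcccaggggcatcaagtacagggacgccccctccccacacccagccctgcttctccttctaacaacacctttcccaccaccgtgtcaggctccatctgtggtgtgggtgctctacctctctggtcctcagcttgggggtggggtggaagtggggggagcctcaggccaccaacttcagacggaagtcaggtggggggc
Il33: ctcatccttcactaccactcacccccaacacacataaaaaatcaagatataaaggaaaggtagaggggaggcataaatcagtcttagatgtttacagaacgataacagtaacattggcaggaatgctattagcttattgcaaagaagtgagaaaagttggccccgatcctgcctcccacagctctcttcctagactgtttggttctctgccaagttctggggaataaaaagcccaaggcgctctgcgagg
The Csf1 window held 1 NF-kB match, on the minus strand of the gene at -154 to -145, and the Lif window held 1 AP-1 match at -228 to -222. Neither Il33 window held any of the 4 patterns. Among the other windows, that of Il6 held an AP-1 match at -249 to -243 and an NF-kB match at -44 to -35, and that of Il1a an AP-1 match at -12 to -6. No window of the 7 genes held the GAS or ISRE letters, which were present in 7.02% and 2.98% of the 32851 windows used, all of the same length. AP-1 letters were in 6.75% and NF-kB letters in 0.356% of them. A match of letters is a description and not a site bound in these cells.

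Among the IL-1 family genes, Il33 changed most, and the sign of its genotype difference was not the same in the 2 experiments. In the untreated experiment Il33 was at 14.4 and 14.97 CPM in sgCtrL and at 23.4 and 21.9 CPM in Sin3Bsg1 libraries. Both Sin3Bsg1 libraries were above both controls, a 1.54-fold difference (log2 fold change 0.62 ± 0.08 SE, adjusted p = 1.948e-05, edgeR). In the IFNγ experiment without IFNγ, Il33 stood at 51.4, 47.7 and 50.9 CPM in sgCtrL and at 44.7, 45.9 and 46.7 CPM in Sin3Bsg1 cells. All 3 Sin3Bsg1 libraries were now below the controls, but the difference did not pass the test (-0.13 ± 0.07, adjusted p = 0.2392). The 2 experiments were normalized separately and their difference was not tested. Col1a1, 1 of the 7 fibroblast markers, also had opposite signs, at -1.62 and 1.37 on the log2 scale, and of that list 3 of 5 tested fell in the untreated experiment whereas 2 rose and 1 fell of 3 tested without IFNγ. Of all genes tested, 15.1% rose and 16.0% fell in the untreated experiment, and 7.89% rose and 9.33% fell without IFNγ. The rise of Pdgfrb there (0.19, adjusted p = 0.0338) was lost in 8 of 18 alternatives, at adjusted p = 0.05862 to 0.1168. Their summed level was 37.7 TPM in both sgCtrL and 11.97 to 13.03 TPM in Sin3Bsg1 libraries of the untreated experiment, and 89.8 to 93.9 against 85.9 to 91.0 TPM without IFNγ. All 6 epithelial markers were called higher in Sin3Bsg1 cells of the untreated experiment and 3 of 6 without IFNγ, with 0 called lower. The part of either marker list in the Il33 result was not tested.

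IFNγ lowered Il33 in both genotypes. With IFNγ, Il33 was at 30.6, 28.1 and 27.7 CPM in sgCtrL and 25.5, 21.4 and 26.1 CPM in Sin3Bsg1 cells. Within the IFNγ experiment, no library with IFNγ reached the level of one without it, of either genotype. Cells with IFNγ held 0.576 of the level without it in sgCtrL (-0.79 ± 0.07, adjusted p = 3.154e-07) and 0.531 in Sin3Bsg1 (-0.91 ± 0.07, adjusted p = 5.729e-08). Under IFNγ the 3 Sin3Bsg1 libraries were below the 3 sgCtrL libraries (-0.24 ± 0.07, adjusted p = 0.03189). This last difference rested on single libraries. Without sgCtrL replicate 1, the library that stood apart, it was -0.19 with adjusted p = 0.1003, and without Sin3Bsg1 replicate 2 it was -0.16 with adjusted p = 0.1444.

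Il18, the IL-1 family cytokine that needs caspase cleavage, had higher values in Sin3Bsg1 libraries of both experiments without IFNγ, none of which passed the test. Its untreated values were 1.85 and 2.72 CPM in sgCtrL and 3.67 and 3.34 CPM in Sin3Bsg1 libraries. The groups did not overlap, at a log2 fold change of 0.62 ± 0.23 (adjusted p = 0.05122). Leaving out single libraries, which leaves 1 library in a group, moved the value between 0.36 and 0.92. Without IFNγ, Il18 stood at 2.64, 2.25 and 1.66 CPM in sgCtrL and at 3.39, 2.70 and 2.67 CPM in Sin3Bsg1 cells, again without overlap (0.42 ± 0.23, adjusted p = 0.2502). With IFNγ it ranged from 1.69 to 2.53 CPM in sgCtrL and from 1.98 to 2.67 CPM in Sin3Bsg1 libraries, which overlapped. The IFNγ effect on Il18 was -0.11 (95% interval -0.58 to 0.36) in sgCtrL and -0.31 (-0.75 to 0.13) in Sin3Bsg1 cells. Il1a, the gene of IL-1α, was listed with 0 to 16 counts per library, the highest in sgCtrL cells with IFNγ at 6, 16 and 9 counts. Differences in Il1a were not detectable at this depth.

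In the IL-6 family, Lif rose with IFNγ and Il6 was too low for its differences to be resolved. Lif, a factor linked to tumor cell plasticity, stood at 9.84 and 11.6 CPM in sgCtrL and 16.7 and 18.1 CPM in Sin3Bsg1 cells of the untreated experiment. The groups were apart, with 1.63-fold more in Sin3Bsg1 cells (0.70 ± 0.10, adjusted p = 4.865e-05). In the second experiment the untreated groups overlapped, at 6.85, 5.30 and 7.49 CPM in sgCtrL and 7.77, 7.09 and 8.13 CPM in Sin3Bsg1 cells (0.24 ± 0.13, adjusted p = 0.2651). With IFNγ, Lif reached 8.40, 9.48 and 10.8 CPM in sgCtrL and 9.44, 10.4 and 10.5 CPM in Sin3Bsg1 libraries. Each library with IFNγ was above those without it of its genotype in this experiment. The rise was 0.56 ± 0.13 in sgCtrL (adjusted p = 0.004827) and 0.40 ± 0.13 in Sin3Bsg1 (adjusted p = 0.02751). The rise in Sin3Bsg1 cells was lost when any of 4 single libraries was left out (Sin3Bsg1 with IFNγ replicates 2 and 3, Sin3Bsg1 without IFNγ replicates 1 and 2), at adjusted p = 0.06415 to 0.1111. Under IFNγ the genotypes overlapped (0.08, 95% interval -0.17 to 0.33).

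Il6 was listed with 2, 22 and 9 counts in sgCtrL and 2, 12 and 1 counts in Sin3Bsg1 libraries without IFNγ. With IFNγ it had 3, 13 and 11 counts in sgCtrL and 9, 10 and 9 in Sin3Bsg1 libraries. Replicates of 1 group thus differed as much as the groups did. No comparison of Il6 passed the test, and the 95% interval of its IFNγ effect ran from -1.81 to 0.96 in sgCtrL and from -0.67 to 2.42 in Sin3Bsg1 cells on the log2 scale. The genotype difference of Il6 without IFNγ was -1.29 (adjusted p = 0.2915). It passed in 1 of 17 alternatives, which left out Sin3Bsg1 replicate 2, the library with 12 counts (-2.99, adjusted p = 0.04993). Over the alternatives the value ran from -2.99 to -0.48, at adjusted p up to 0.8128.

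Il15 rose with IFNγ in both genotypes and was higher in Sin3Bsg1 cells of the untreated experiment, at low counts. Untreated sgCtrL libraries held 31 and 10 counts (1.04 and 0.340 CPM) and Sin3Bsg1 libraries 48 and 62 counts (1.49 and 2.01 CPM). The groups did not overlap (log2 fold change 1.33 ± 0.42, adjusted p = 0.02228), but the controls differed more than the groups' nearest libraries did. The call was lost without sgCtrL replicate 2 (0.75, adjusted p = 0.1957) and without Sin3Bsg1 replicate 2 (1.11, adjusted p = 0.09495), and the value was 2.35 without sgCtrL replicate 1 (adjusted p = 0.001405). In the IFNγ experiment, Il15 stood at 0.701, 0.626 and 0.374 CPM in sgCtrL and at 0.914, 1.35 and 0.688 CPM in Sin3Bsg1 cells without IFNγ, with an overlap. With IFNγ it was at 0.895, 1.32 and 1.44 CPM in sgCtrL and at 2.42, 2.10 and 2.02 CPM in Sin3Bsg1 libraries, which did not overlap. The rise with IFNγ was 2.14-fold in sgCtrL (1.10 ± 0.34, adjusted p = 0.02475) and 2.21-fold in Sin3Bsg1 cells (1.15 ± 0.30, adjusted p = 0.008644). In sgCtrL it was lost without any of 4 single libraries (replicates 2 and 3 with IFNγ, replicates 2 and 3 without), at adjusted p = 0.05504 to 0.1019. The genotype difference under IFNγ was 0.83 ± 0.29 (adjusted p = 0.06785) and that without IFNγ 0.78 ± 0.35 (adjusted p = 0.1522). Tslp had 0 to 3 counts in every library, at or below the detection limit, and no fold is given.

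Csf1, the gene of the macrophage factor M-CSF, was raised by IFNγ in both genotypes, and its genotype difference had opposite signs in the 2 experiments. Untreated libraries held 104 and 102 CPM in sgCtrL and 85.1 and 86.7 CPM in Sin3Bsg1 cells. Both Sin3Bsg1 libraries were lower, at 0.833 of the control level (-0.26 ± 0.04, adjusted p = 2.391e-05). In the IFNγ experiment without IFNγ, Csf1 was at 96.6, 94.3 and 89.0 CPM in sgCtrL and at 127, 129 and 127 CPM in Sin3Bsg1 libraries. Here every Sin3Bsg1 library was above every control, by 1.37-fold (0.45 ± 0.04, adjusted p = 2.098e-06). With IFNγ the levels were 182, 181 and 185 CPM in sgCtrL and 212, 206 and 208 CPM in Sin3Bsg1 cells. The 4 groups of the IFNγ experiment were thus ordered without overlap, from sgCtrL and Sin3Bsg1 without IFNγ to sgCtrL and Sin3Bsg1 with IFNγ. Under IFNγ the genotype difference was 0.19 ± 0.04 (adjusted p = 0.00461), and a fit of only the 6 libraries compared gave 0.18 with adjusted p = 0.05044. Whether the genotype differences of Csf1 differed between the experiments was not tested. Of the fibroblast markers, Col1a1 (-1.62 and 1.37) and Pdgfrb (-1.14 and 0.19) turned from lower to higher as Csf1 did, whereas Pdgfra (-1.78 and -0.26) was lower in both experiments. Collagen transcripts are reported by the paper in the tumor cells themselves. The summed level of the 7 markers was lower in Sin3Bsg1 cells of the untreated experiment and overlapped without IFNγ (89.8 to 93.9 against 85.9 to 91.0 TPM). Neither their part in the Csf1 result nor that of the epithelial markers was tested.

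IFNγ raised Csf1 by 1.96-fold in sgCtrL (0.97 ± 0.04, adjusted p = 4.015e-11) and by 1.63-fold in Sin3Bsg1 cells (0.71 ± 0.04, adjusted p = 1.733e-09). The effect in Sin3Bsg1 minus that in sgCtrL cells was -0.26 ± 0.06, with an unadjusted p = 5.272e-04 and an adjusted p = 0.2125 in edgeR, while DESeq2 gave -0.27 with adjusted p = 0.004427. The size of the difference was alike in both tools and only the call differed. Of the 8 genes tested for such a difference, 0 passed in edgeR and 1 had an unadjusted p under 0.05, which was Csf1. The share of all genes with an unadjusted p under 0.05 was not determined. DESeq2 called 1 of the 3 members it gave an adjusted p, and 32 of all 11030 genes with one. Over all genes edgeR called 0.114% (0.0805% higher, 0.0335% lower).

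In the IFNγ experiment the granulocyte factor Csf3 was lower in Sin3Bsg1 cells without IFNγ, and IFNγ lowered it in sgCtrL cells. Without IFNγ, sgCtrL libraries held 42, 52 and 35 counts (2.26, 2.17 and 1.87 CPM) and Sin3Bsg1 libraries 19, 25 and 13 counts (0.723, 1.09 and 0.559 CPM). All Sin3Bsg1 libraries were below all controls, at 0.376 of their level (-1.41 ± 0.33, adjusted p = 0.006832). With IFNγ, Csf3 had 17, 26 and 16 counts in sgCtrL (0.845, 0.982 and 0.721 CPM) and 13, 11 and 5 counts in Sin3Bsg1 libraries (0.543, 0.444 and 0.215 CPM). The groups remained apart, without passing the test (-1.07 ± 0.38, adjusted p = 0.06805). IFNγ lowered Csf3 to 0.407 of its level in sgCtrL (-1.30 ± 0.33, adjusted p = 0.006878). In Sin3Bsg1 cells the value was -0.96 ± 0.38 (adjusted p = 0.07355). It passed in 1 of 17 alternatives, the one without Sin3Bsg1 IFNγ replicate 1 (-1.26, adjusted p = 0.04933). Over the alternatives it ran from -1.26 to -0.67, at adjusted p up to 0.2841. In the untreated experiment Csf3 had 1 and 0 counts in sgCtrL and 7 and 0 counts in Sin3Bsg1 cells and was not tested.

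Csf2, the gene of GM-CSF, had 11, 20 and 13 counts in sgCtrL and 23, 26 and 17 counts in Sin3Bsg1 libraries without IFNγ. With IFNγ the counts were 7, 25 and 26 in sgCtrL and 17, 35 and 18 in Sin3Bsg1 cells. All 4 groups overlapped, and none of the comparisons of Csf2 passed the test. Its 95% intervals ran from -0.49 to 1.19 for the genotype without IFNγ and from -0.59 to 1.03 with IFNγ. Without the sgCtrL library that stood apart, which held the 7 counts, the difference with IFNγ turned from 0.22 to -0.11, and without Sin3Bsg1 replicate 2, which held 35 counts, to -0.16.

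**Figure D2:**
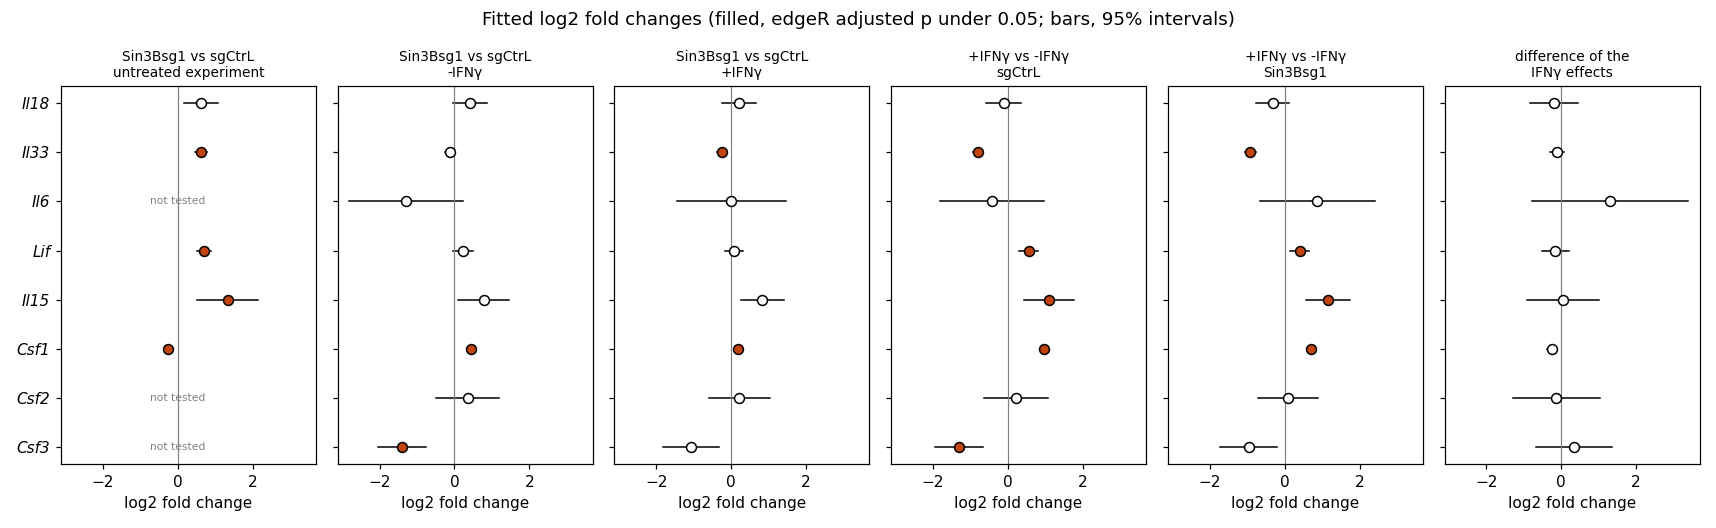
Fitted log2 fold changes of the 8 genes tested (rows) in the 6 comparisons (panels), with bars for 95% intervals and filled symbols for an adjusted p under 0.05. Csf1 is filled in the first 5 panels, at -0.26, 0.45, 0.19, 0.97 and 0.71, and Il33 stands left of 0 in the IFNγ panels at -0.79 and -0.91.

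Large parts of the transcriptome changed in each comparison, and the counts of called members are given beside them. In the untreated experiment 4 of the 5 tested members passed, 3 higher and 1 lower in Sin3Bsg1 cells, where 31.1% of all genes tested passed (15.1% higher, 16.0% lower). In all 5 the groups did not overlap, 4 higher and 1 lower, as in 63.3% of all genes with 2 libraries a group (31.9% higher, 31.4% lower). Without IFNγ, Csf1 rose and Csf3 fell, 2 of 8 against 17.2% of all genes (7.89% higher, 9.33% lower). There 2 members were higher and 2 lower without overlap, against 39.2% of all genes (18.3% higher, 20.9% lower). With IFNγ, Csf1 was higher and Il33 lower in Sin3Bsg1 cells, 2 of 8 against 16.5% (8.62% higher, 7.90% lower), and without the sgCtrL library that stood apart 1 of the 8 was called. Again 2 were higher and 2 lower without overlap, against 30.4% (15.4% higher, 14.9% lower).

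IFNγ changed 5 of 8 members in sgCtrL cells (Il15, Lif and Csf1 up, Il33 and Csf3 down), against 30.2% of all genes (15.7% higher, 14.5% lower). Those 5 were the members without overlap, against 41.5% of all genes (20.8% higher, 20.7% lower). In Sin3Bsg1 cells it changed 4 of 8 (Il15, Lif and Csf1 up, Il33 down), against 28.4% (16.1% higher, 12.3% lower). Here 3 members were higher and 2 lower without overlap, against 45.4% (24.3% higher, 21.1% lower). Low genes pass the filter where they are expressed, so these counts describe the tested genes and not all 10.

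Levels also differed between the controls of the 2 experiments, which are given side by side without a test. In sgCtrL cells without IFNγ, Il33 averaged 14.7 ± 0.42 CPM (SD, n = 2) in the untreated and 49.97 ± 2.01 CPM (n = 3) in the IFNγ experiment. Csf3 had 1 and 0 counts in the first and 35 to 52 counts in the second. Lif was at 10.7 ± 1.22 and 6.55 ± 1.1 CPM, and Csf1 at 103 ± 1.21 and 93.3 ± 3.90 CPM. The labels give the same medium for both experiments and no date or passage.

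The receptors and soluble antagonists of these cytokines were examined as a list of 20 genes, of which 11 were tested. In the untreated experiment 2 were higher and 6 lower in Sin3Bsg1 cells, where 15.1% of all genes tested were higher and 16.0% lower. Without IFNγ 2 were higher and 3 lower, beside 7.89% and 9.33% of all genes. With IFNγ 1 was higher and 4 were lower, beside 8.62% and 7.90%. The median log2 fold changes of the 11 genes were -0.22, -0.13 and -0.092, beside medians over all genes tested of 0.0024, -0.0090 and 0.0036. Il15ra, which presents IL-15 on the cell surface, was higher in Sin3Bsg1 cells in all 3 settings, by 0.66 ± 0.15, 0.64 ± 0.14 and 0.43 ± 0.09 on the log2 scale (adjusted p = 0.002306, 0.005018 and 0.004387). Lifr, the LIF receptor chain, was lower in all 3, by -0.51 ± 0.03, -0.35 ± 0.05 and -0.32 ± 0.05 (adjusted p = 9.41e-10, 6.547e-05 and 1.892e-04). Its libraries held 260.2 and 249 CPM in sgCtrL and 177 and 181 CPM in Sin3Bsg1 cells of the untreated experiment. Il6ra, the IL-6 receptor chain, was lower in the untreated experiment (-0.66 ± 0.17, adjusted p = 0.008146), a call lost without sgCtrL replicate 1 or Sin3Bsg1 replicate 2 (adjusted p = 0.07288 and 0.05283).

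IFNγ raised 3 of the 11 receptor and antagonist genes and lowered 2 in sgCtrL cells, and raised 4 and lowered 2 in Sin3Bsg1 cells, with medians of -0.065 and 0.015 beside -0.00062 and 0.0052 over all genes. Of all genes, 15.7% rose and 14.5% fell in sgCtrL and 16.1% rose and 12.3% fell in Sin3Bsg1 cells. Il18bp, the secreted inhibitor of IL-18, went from 2.70, 3.05 and 2.14 CPM to 50.5, 51.5 and 49.6 CPM in sgCtrL and from 2.59, 1.70 and 2.92 CPM to 40.1, 44.1 and 43.8 CPM in Sin3Bsg1 cells. This was a rise of 4.25 ± 0.12 and 4.14 ± 0.12 (adjusted p = 1.152e-13 and 1.387e-13), beside a cytokine, Il18, whose own change did not pass. Il15ra rose by 2.79 ± 0.12 and 2.58 ± 0.11 (adjusted p = 3.609e-11 and 2.1e-11), to 17.8 to 20.5 CPM in sgCtrL and 24.4 to 27.0 CPM in Sin3Bsg1 libraries. Transcripts of Il15 and Il15ra thus both rose, although the Il15 rise in sgCtrL cells depended on single libraries. Il18rap, an IL-18 receptor chain, rose by 1.42 ± 0.14 and 1.92 ± 0.15 (adjusted p = 8.486e-07 and 5.08e-08). Its level was lower in Sin3Bsg1 cells without IFNγ (-0.92 ± 0.16, adjusted p = 7.935e-04) and with IFNγ (-0.41 ± 0.13, adjusted p = 0.0346), the last lost in 9 of 18 alternatives, the one without the sgCtrL library that stood apart among them (adjusted p = 0.07134). Csf1r and the IL-33 receptor Il1rl1 were not tested, with at most 3 and 16 counts in any library.

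**Figure D3:**
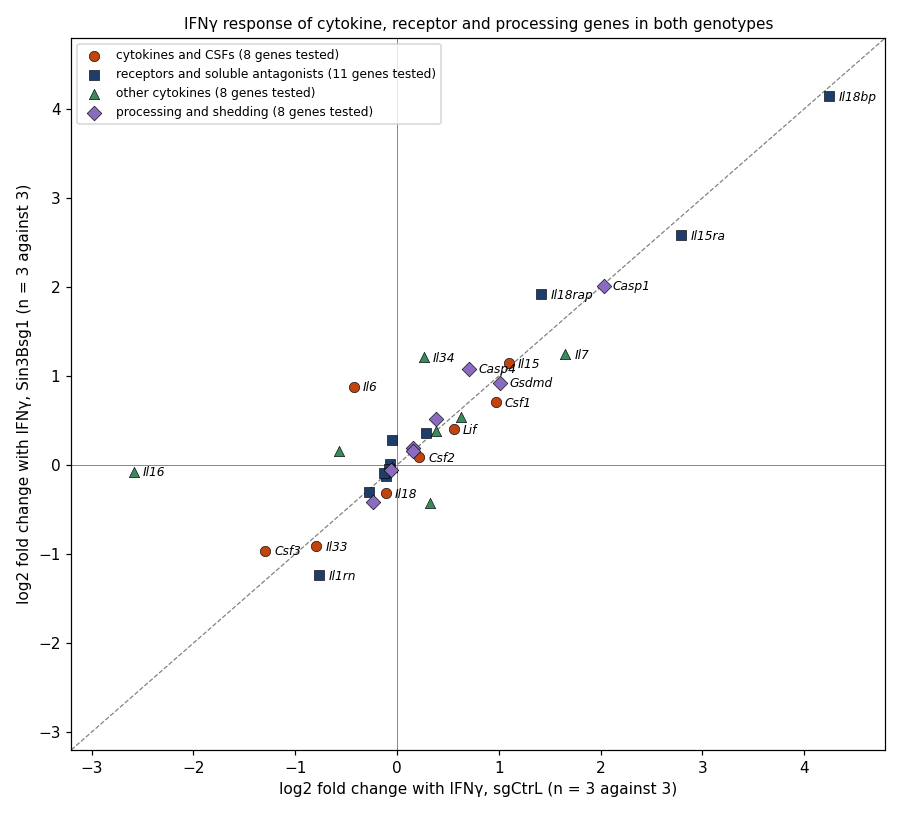
Log2 fold change with IFNγ in sgCtrL (horizontal axis) and Sin3Bsg1 cells (vertical axis), 1 symbol per gene tested, coloured by list, with a dashed line of equal change. Names are given for the cytokines and colony-stimulating factors and for any gene past 1 in size on either axis. Il18bp lies at 4.25 and 4.14 and Il33 at -0.79 and -0.91.

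Of 37 other cytokines of the same families, 6 were tested in the untreated and 8 in the IFNγ experiment, and the others were below the filter on low counts. In the untreated experiment Kitl, the stem cell factor, was higher in Sin3Bsg1 cells (0.14 ± 0.04, adjusted p = 0.006263) and Clcf1, a gp130 cytokine, lower (-0.13 ± 0.03, adjusted p = 0.003787). Without and with IFNγ, Kitl was lower (-0.17 and -0.17, adjusted p = 0.04826 and 0.04229), calls that were lost in 14 and 12 of 18 alternatives. Without the sgCtrL library that stood apart, the value with IFNγ was -0.11 (adjusted p = 0.1439), and the Clcf1 call was lost without sgCtrL replicate 2 (-0.10, adjusted p = 0.05315). IFNγ raised 3 and lowered 1 of 8 in sgCtrL cells and raised 4 in Sin3Bsg1 cells, where edgeR called 0 as lower, also at an unadjusted p under 0.05. Over all genes 15.7% rose and 14.5% fell in sgCtrL and 16.1% rose and 12.3% fell in Sin3Bsg1 cells. The medians of the 8 genes were 0.29 and 0.27, beside -0.00062 and 0.0052 over all genes. Il7, a lymphocyte survival factor, rose by 1.65 ± 0.32 and 1.25 ± 0.30 (adjusted p = 0.001009 and 0.005042), from 0.321 to 0.593 CPM to 1.40 to 1.67 CPM in sgCtrL libraries. Flt3l, a dendritic cell factor, rose by 0.63 ± 0.17 and 0.54 ± 0.16 (adjusted p = 0.01149 and 0.02015), calls lost in 3 of 18 alternatives each. Il34, the other ligand of the M-CSF receptor, rose in Sin3Bsg1 cells (1.21 ± 0.24, adjusted p = 0.001137) and Il16, a T cell attractant, fell in sgCtrL cells, from 12, 19 and 18 counts to 0, 6 and 3 counts (-2.59 ± 0.60, adjusted p = 0.003977). The difference between genotypes in the IFNγ effect did not pass for either (Il34, 0.95 ± 0.34, adjusted p = 0.7665, and Il16, 2.51 ± 0.80, adjusted p = 0.619).

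Of the 9 genes for the processing and shedding of cytokines, 8 were tested with IFNγ and 6 rose in each genotype, whereas edgeR called 0 as lower, also at an unadjusted p under 0.05. Of all genes, 15.7% rose in sgCtrL and 16.1% in Sin3Bsg1 cells. The other two, Pycard (-0.24 and -0.41) and Adam17 (-0.059 and -0.060), did not pass. The medians of the list were 0.27 and 0.35, beside -0.00062 and 0.0052 over all genes. Casp1, the caspase that cleaves pro-IL-18, rose by 2.03 ± 0.10 in sgCtrL and 2.02 ± 0.10 in Sin3Bsg1 cells (adjusted p = 1.357e-10 and 1.92e-10), from 5.56 to 7.82 CPM to 26.7 to 28.9 CPM in sgCtrL libraries. Gsdmd, which forms the pore through which IL-1 family cytokines leave the cell, rose by 1.01 ± 0.05 and 0.93 ± 0.05 (adjusted p = 4.597e-10 and 1.109e-09). Casp4, the caspase of the noncanonical inflammasome, rose by 0.71 ± 0.07 and 1.08 ± 0.07 (adjusted p = 1.135e-06 and 6.644e-09). By genotype, 1 was higher (Gsdmd, 0.44 ± 0.04, adjusted p = 9.836e-08) and 1 lower (Adam17, -0.14 ± 0.03, adjusted p = 0.004035) of 7 tested in the untreated experiment. Without IFNγ 2 of 8 were higher (Gsdmd and Capn2, 0.22 ± 0.05 and 0.20 ± 0.05) and 2 lower (Casp4 and Casp1, -0.50 ± 0.07 and -0.41 ± 0.11), the Casp1 call being lost in 4 of 18 alternatives and that of Gsdmd in 1. With IFNγ Capn2 was higher (0.19 ± 0.05) and Casp1 lower (-0.42 ± 0.09, adjusted p = 0.002583) in Sin3Bsg1 cells. Beside these counts, 15.1% of all genes tested were higher and 16.0% lower in the untreated experiment. The shares were 7.89% and 9.33% without IFNγ and 8.62% and 7.90% with IFNγ.

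The genes whose log2 CPM ran most like those of the 3 members with the highest CPM were found over the 12 libraries of the IFNγ experiment, as a description only, since these libraries share 4 group levels. For Csf1 they were Gpa33, Fst and Gphn (Pearson r 0.993, 0.992 and 0.988). For Il33 they were Gm3776, B4galt6 and Morc4 (0.989, 0.985 and 0.984). For Lif they were Gm20412, Zc3h7a and Gm47103 (0.956, 0.938 and 0.921).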

How the data were processed

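RNA-seq of KPC1199 cells was deposited as 2 tables of estimated counts per gene, without normalization, in which the authors' values need not be whole. The paper names HISAT2 against mm9 with featureCounts, whereas the submitters' processing notes name fastp, HISAT2, StringTie, DESeq2 and mm39. Versions, annotation and strand setting are not given in the sources used here, so overlapping or antisense genes cannot be separated. Control columns in the deposited tables are named for lacZ, and these were read as the sgCtrL samples. The 6 columns of group means were not used.

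Counts were rounded, and 324 assembled loci without a gene name (0.615% to 0.677% of the untreated counts) were left out. Each table was fitted apart with edgeR 4.0.16 in R 4.3.3 (TMM scaling, filterByExpr, quasi-likelihood test, two-sided, Benjamini-Hochberg over the 14589 and 14913 genes tested, threshold 0.05), with 1 mean per group. Residual degrees of freedom were 2 and 8 and the biological coefficients of variation 2.837% and 6.784%. SE was derived from the fold change and its F statistic, and 95% intervals are 1.96 SE on either side. CPM are counts scaled to a TMM-adjusted library of 1000000, and TPM also use the deposited gene length. The fits were tested on simulated data. For genes that the lists named, alternatives were added after seeing the data. Alternatives were DESeq2 1.42.0, another scaling, other filters on low counts, a replicate block, fits of 6 libraries, and leaving out each library. The text names all 10 members and, from each list, genes past the threshold, by the 3 largest changes per comparison. Csf1r, Il1rl1, Pycard and, for IFNγ, Adam17 are named outside that rule, with their values known. The genes and lists were chosen with earlier results of these data known. Some items are not reported here. Figures were drawn with matplotlib 3.10.9.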

Additional observations from a re-analysis of the deposited data

Results flagged for a closer look

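Genotype differences of opposite sign in the 2 experiments were seen for several genes, each with every Sin3Bsg1 library on one side of every sgCtrL library in both. In all of them the difference between the experiments was not tested. Groups without overlap were common, in 63.3% of all genes tested in the untreated experiment and 39.2% without IFNγ. The share of all genes with opposite signs was not determined. The values below are log2 fold changes of Sin3Bsg1 against sgCtrL, first in the untreated experiment and then in the IFNγ experiment without IFNγ.

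Csf1 stood at -0.26 and 0.45, and Il33 at 0.62 and -0.13, the last without passing the edgeR test (adjusted p = 0.2392). Of the genes from the lists, Kitl was at 0.14 and -0.17 and Il18rap at 0.77 and -0.92. The second Kitl call was lost in 14 of 18 alternatives, and the first Il18rap value did not pass (adjusted p = 0.3204). Capn2 was at -0.051 and 0.20, and Adam17 at -0.14 and 0.053. The first value of Capn2 (adjusted p = 0.1463) and the second of Adam17 (adjusted p = 0.4479) did not pass. Among fibroblast markers, Col1a1 was at -1.62 and 1.37 and Pdgfrb at -1.14 and 0.19. The second Pdgfrb call was lost in 8 of 18 alternatives.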

How the results depend on the processing

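Several comparisons kept their call in every alternative that tested them. These were the IFNγ effects on Csf1 and Il33 in both genotypes, on Csf3 and Lif in sgCtrL cells and on Il15 in Sin3Bsg1 cells. The others were the genotype differences of Csf1, Il33 and Lif in the untreated experiment and those of Csf1 and Csf3 without IFNγ. Of 730 values of single members under the alternatives, 690 kept both, 15 lost the threshold, 7 gained it and 18 changed sign, none of the last in a comparison that had passed. All 18 came from leaving out 1 library. The lowest and highest values over all libraries left out were -0.16 to 0.54 for Csf2 and -0.33 to 0.24 for Il6 (genotype with IFNγ), -0.097 to 0.55 for Csf2, -0.33 to 0.039 for Il18 and -0.87 to 0.38 for Il6 (IFNγ in sgCtrL), -0.32 to 0.26 for Csf2 (IFNγ in Sin3Bsg1), and -0.54 to 0.18 for Csf2 and -0.15 to 0.33 for Il15 (difference of effects).

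In fits of only the 6 libraries compared, the genotype difference with IFNγ held 1500 genes instead of 2464 and 0 members instead of 2 (Csf1 and Il33, adjusted p = 0.05044 and 0.1093), that without IFNγ 3996 genes instead of 2568, and Il15 by IFNγ in sgCtrL had adjusted p = 0.05439. With at least 10 counts in every library, Csf3 and Il15 were not tested, which left 1 member without IFNγ and 3 by IFNγ in sgCtrL. For the difference of the IFNγ effects, DESeq2 called 32 genes and 1 member (Csf1), and 110 genes were called without a filter, against 17. Leaving out 1 library gave 1 to 33 genes there, and 1 to 2 members for the genotype with IFNγ. The cause of these shifts was not tested.

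In the IFNγ experiment, deviations from the group means correlated at -0.12 to 0.241 between same-numbered and -0.265 to 0.183 between differently numbered libraries. In the untreated one these values were 0.0482 and -0.0482. With IFNγ, sgCtrL and Sin3Bsg1 libraries of the same number gave 0.215, 0.241 and -0.0051 for replicates 1, 2 and 3. The numbers were not taken to pair the libraries, and shared handling was not tested. With the replicate number as a block, Il18 of the untreated experiment passed (0.63, adjusted p = 0.03563), giving 5 members, and no other member's call changed (4 were called in the untreated experiment without the block). Il18 also passed with other filters (adjusted p = 0.04479 and 0.03774), but not with DESeq2 or the other scaling. In the untreated experiment, leaving out 1 library leaves an arm with 1, which is assumed to vary like the other arm. Genes named from the lists were added as alternatives after seeing the data, where 981 values kept their call and 69 lost it. Depth limits Il1a, Il6, Csf2 and Tslp.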
